A study of Rattus norvegicus with 2 samples.

Results

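The miR-29 family of microRNAs (miRNAs) was followed in the rat carotid artery 10 days after balloon injury. The family was chosen by name: the guide strands rno-miR-29a, rno-miR-29b and rno-miR-29c and the passenger strands rno-miR-29a*, rno-miR-29b-2* and rno-miR-29c*, which are 6 of the 350 rat miRNAs on the array. The uninjured group was a carotid artery without injury from male Sprague-Dawley rats of about 250 g, and the injured group was a carotid artery of the same strain, sex and weight after balloon injury. Each group held 1 array of total RNA labelled with Cy3. The sources used here do not give how many rats contributed to each array or which layers of the wall were kept. No replicate error could therefore be computed, no test between the groups was run, and every comparison below is between these 2 arrays.

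A miRNA is cut from a hairpin precursor, and the strand that is kept, the guide, pairs with messenger RNAs through its seed, bases 2 to 8 from the 5′ end, and represses them. The other strand, the passenger (marked with an asterisk in the older naming used on this array), is mostly degraded. miR-29 guides are known for repressing messenger RNAs of fibrillar collagens, elastin and fibrillin, the proteins that give an artery its strength and recoil. Balloon injury strips the endothelium and stretches the wall, and smooth muscle cells then divide and lay down new matrix in a neointima. Collagen and elastin messenger RNAs were not analysed here.

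The guide strands are shown first because they share a seed while differing in few other bases. All 7 rows of the family on the array, which include rno-miR-29b-1*, had a mature sequence in RefSeq (build GRCr8). The sources used here do not say whether the array probes were made for exactly these sequences. Capitals mark the seed.

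rno-miR-29a: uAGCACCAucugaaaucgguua
rno-miR-29b: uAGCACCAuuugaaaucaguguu
rno-miR-29c: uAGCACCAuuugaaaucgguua

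The seed AGCACCA was found in 3 of the 692 distinct rat mature sequences in the RefSeq table, and these were the 3 guides. miR-29a and miR-29c matched at 21 of 22 positions, and the only substitution from miR-29a to miR-29c was C10U, counted from the 5′ end. miR-29b is 23 bases long, 1 more than the others. From miR-29c to miR-29b the substitutions were G18A, U21G and A22U, so these guides were identical over their first 17 bases and differed only towards the 3′ end. The nearest other mature sequence in the table, miR-3590-3p, was 7 edits away from a miR-29 guide. Whether the array probes separate miR-29a from miR-29c was not tested.

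The 3′ end of miR-29b holds the hexamer AGUGUU at bases 18 to 23, which is known as a signal that directs miR-29b to the nucleus. Here it is in capitals.

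rno-miR-29b: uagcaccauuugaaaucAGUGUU

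This hexamer was searched on the mature strand only, and 8 of the 692 distinct mature sequences (1.16%) held it. miR-29a and miR-29c did not. These arrays do not measure where in the cell a miRNA lies.

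The passenger strands are shown because they share no seed with each other or with the guides, so a passenger probe reads a different RNA from the same hairpin.

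rno-miR-29a*: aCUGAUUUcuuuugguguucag
rno-miR-29b-1*: uUUCAUAUggugguuuagauuu
rno-miR-29b-2*: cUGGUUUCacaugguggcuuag
rno-miR-29c*: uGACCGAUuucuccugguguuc

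The family comes from 4 hairpins in 2 clusters. In GRCr8, Mir29a lies at chr4:60617955-60618042 and Mir29b1 at chr4:60618334-60618414, both on the minus strand and 291 bases apart. Mir29b2 lies at chr13:109098831-109098911 and Mir29c at chr13:109099359-109099446, both on the plus strand with 447 bases between them. Mir29b1 and Mir29b2 give the same mature miR-29b, so the signal of rno-miR-29b cannot be assigned to either cluster. The hairpin of Mir29c is shown because it was the only one of the 4 whose passenger strand was measured. Capitals mark miR-29c* and then miR-29c.

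Mir29c: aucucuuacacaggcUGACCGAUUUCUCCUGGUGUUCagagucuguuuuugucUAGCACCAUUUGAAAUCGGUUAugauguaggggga

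Each array lists a signal intensity on a linear scale and a flag of 0 or 1, and a miRNA was taken as measured where its flag was 1. The uninjured array measured 166 of the 350 rat miRNAs and the injured array 184, with 158 in common. Among unmeasured miRNAs the highest signal was 8.84 (uninjured) and 5.98 (injured). The smooth muscle miRNAs miR-143 and miR-145 and the endothelial miR-126, known from arterial wall, were measured on both arrays. Log2 ratios are injured minus uninjured after each array was scaled to its 75th percentile over the 158 miRNAs, and a 2-fold difference is a descriptive threshold only.

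The guides of the miR-29 family were bright on both arrays and differed little between them. rno-miR-29a had a signal of 2566 in the uninjured artery and 2851 in the injured artery. rno-miR-29b had a signal of 1458 in the uninjured and 1991 in the injured artery. rno-miR-29c went the other way, from 1213 in the uninjured artery to 1007 in the injured artery. In both arteries all 3 guides were over 100 times the highest signal of an unmeasured miRNA, so detection did not limit these values.

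**Figure D1:**
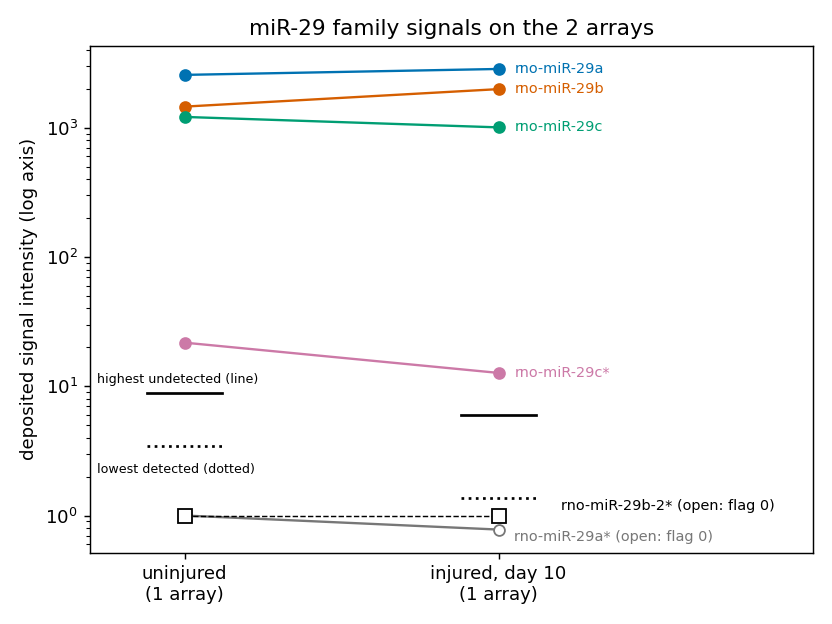
Deposited signal intensity (log axis) of the 6 miR-29 members on the uninjured and the injured array, 1 array each; filled points have flag 1, open points flag 0, and short lines give each array's highest undetected (solid) and lowest detected (dotted) signal. The 3 guides lie between 1007 and 2851, rno-miR-29c* lies at 21.7 and 12.7, and the other passenger strands lie at or under 1.

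After scaling, rno-miR-29b had the highest log2 ratio of the family, at 0.54 or 1.45-fold higher in the injured artery. rno-miR-29a had a log2 ratio of 0.24, or 1.18-fold higher. For rno-miR-29c the log2 ratio was -0.18, or 1.13-fold lower. Of the 158 miRNAs, 43 had a higher log2 ratio than rno-miR-29b, 69 a higher one than rno-miR-29a and 123 a higher one than rno-miR-29c. None of the guides thus stood at an end of the range, which ran from -2.47 to 2.56 over the 158 miRNAs.

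The passenger strand rno-miR-29c* was the lowest of the family. Its signal was 21.7 in the uninjured artery and 12.7 in the injured artery, 2.46 and 2.12 times the highest signal of an unmeasured miRNA on the same array. The log2 ratio was -0.69, or 1.61-fold lower after injury, and 14 of the 158 miRNAs had a lower one. It was the only member among the 40 dimmest of the 158 by mean signal, whose log2 ratios had quartiles of -0.27 and 0.60. Its ratio lay under the lower of these quartiles.

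The other passenger strands were measured on neither array. rno-miR-29a* was listed at 1 in the uninjured and at 0.779 in the injured artery, both with flag 0. rno-miR-29b-2* was listed at 1 on both arrays, as was rno-miR-29b-1*. The value 1 was given to 109 miRNAs on each array and, since other listed signals lie under it, appears to stand in for a missing or non-positive signal, so no fold is given for these strands. A passenger strand without a measured signal was common: of the 58 rows with an asterisk, 36 were measured on neither array and 15 on both.

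No miR-29 member was at least 2-fold higher or at least 2-fold lower in the injured artery. The same threshold was passed upwards by 12.7% and downwards by 3.80% of all 158 miRNAs measured on both arrays. Among the 4 measured members, 3 lay within 1.5-fold, as did 64.6% of the 158. This count holds for the scaling used here. rno-miR-29c lay past 1.5-fold downwards with the medians aligned (-0.63) and with the 75th percentile of all rat miRNAs (-0.68). The same held for either alignment of the array's control features (-0.64 and -0.77). The share of the 158 within 1.5-fold was not computed in those settings. The members' median log2 ratio was 0.03, beside 0.14 over the 158, with quartiles of -0.14 and 0.58. The 3 guides together took 5.48% of the summed miRNA signal of the uninjured array and 6.0% of that of the injured array. Multiplying an array by a constant does not change these shares of the unscaled signals. Dividing by the summed signal is itself a way of scaling, so the shares do not settle the direction.

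**Figure D2:**
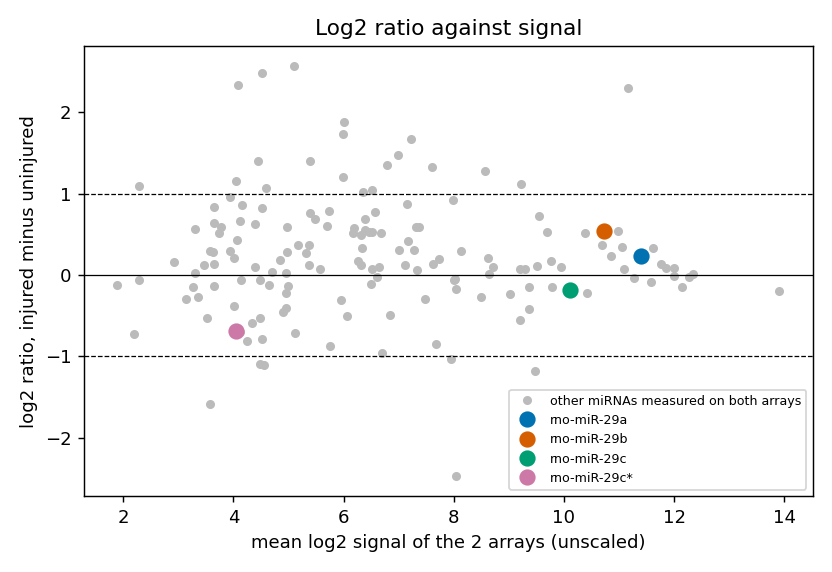
Log2 ratio (injured minus uninjured) against the mean log2 signal of the arrays for the 158 miRNAs measured on both, 1 point per miRNA, with dashed lines at 2-fold. The guides lie among the 40 brightest miRNAs between -0.18 and 0.54, and rno-miR-29c* lies at -0.69 among the 40 dimmest.

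Among the 40 brightest of the 158 miRNAs, which include all 3 guides, the log2 ratios had quartiles of -0.10 and 0.33, with a median of 0.09. These quartiles lay closer together than those of the 40 dimmest. rno-miR-29b at 0.54 lay above the upper quartile and rno-miR-29c at -0.18 below the lower one, while rno-miR-29a lay between them. These places describe 1 pair of arrays and carry no error.

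The direction of the family depended on how the arrays were scaled to each other. rno-miR-29c and rno-miR-29c* were lower in the injured artery under each of the 9 settings computed (of which no scaling and the authors' deposited ratio give the same values), from -0.77 to -0.18 and from -1.28 to -0.69. rno-miR-29a ranged from -0.35 to 0.24 and was negative in 4 of the 9. rno-miR-29b ranged from -0.05 to 0.54 and was negative in 1, with the control features of the array aligned by the median of their log2 ratios. In 4 settings rno-miR-29c* passed the 2-fold threshold downwards: with the medians aligned (-1.13, where 10.1% of the 158 passed it), using the 75th percentile of all rat miRNAs (-1.19, 12.7%), with the control features aligned (-1.15, 10.8%) and with the control features aligned by median ratio (-1.28, 14.6%). Those 4 settings moved the median of all 158 miRNAs down by 0.44 to 0.59. The 6 control features measured on both arrays were each brighter on the injured array, with a median unscaled log2 ratio of 0.50, and their part in the ratios was not tested.

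**Figure D3:**
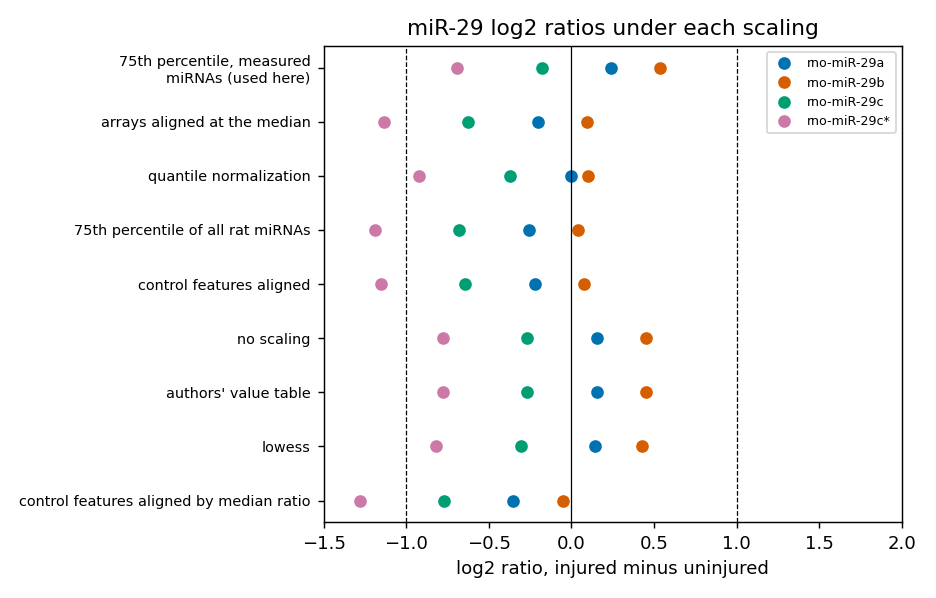
Log2 ratio (injured minus uninjured) of the 4 measured miR-29 members under 9 ways of scaling the arrays, 1 point per member and setting, with dashed lines at 2-fold. The order rno-miR-29b, rno-miR-29a, rno-miR-29c, rno-miR-29c* from high to low is kept in each setting, while rno-miR-29a lies above 0 in the setting used here (0.24) and below 0 in 4 others.

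Differences between members do not change when a whole array is multiplied by a constant, so they can be read without choosing such a scaling. The log2 ratio of rno-miR-29b was 0.72 above that of rno-miR-29c, a 1.65-fold difference between guides with the same seed. rno-miR-29a was 0.42 above rno-miR-29c, its neighbour in sequence, and 0.30 below rno-miR-29b. Quantile normalization and a local regression on signal, which are not constant factors, can change these gaps. Under quantile normalization the gap from rno-miR-29b to rno-miR-29c was 0.47 and that from rno-miR-29b to rno-miR-29a was 0.10. Under the local regression they were 0.73 and 0.28. By cluster, rno-miR-29a, which only the chromosome 4 cluster encodes, was higher than rno-miR-29c, which only the chromosome 13 cluster encodes, and rno-miR-29b, which both encode, lay above both.

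miR-29c and miR-29c* come from 1 hairpin, and their log2 ratios of -0.18 and -0.69 had the same sign. The gap between them was 0.51. The array holds 12 pairs measured on both arrays whose names differ only by the asterisk, with a median gap of 0.48, and 5 pairs had a wider gap than miR-29c. Among these 12 the widest gap was 1.19 for miR-28 and miR-28*, and the narrowest 0.25 for miR-30a and miR-30a*. The miR-29c pair was thus near the middle of these 12 pairs. miR-24 with miR-24-2* (log2 ratios of 0.09 and 0.59) and miR-30c with miR-30c-2* (-0.24 and 0.14) were also measured but not counted, because their asterisk names carry a hairpin number. Pairs named by arm suffix were not counted either. Their log2 ratios (5p, then 3p) were 0.20 and 0.61 for miR-125a, 2.49 and 1.88 for miR-142, and 0.72 and 0.37 for miR-199a. For miR-30b they were -0.17 and -0.07, for miR-324 0.27 and 0.59, and for miR-345 0.12 and 0.52.

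Families were compared by the spread of their guides. On the array 4 families, sets of names with 1 number and different letters, had at least 3 such members with a ratio and a seed shared by the members matched in RefSeq. The widest spread of log2 ratios was 1.49 in the miR-181 family, from miR-181c at -0.79 to miR-181b at 0.69. The 3 miR-29 guides followed with a spread of 0.72. Names with different numbers that share a seed were not grouped, so this order holds only among these 4. It was computed in this scaling only. Under quantile normalization the miR-29 spread was 0.47, and those of the other families were not computed. The families also differed in brightness. Uninjured and injured signals were 31.2 and 17.0 for miR-181c and 36.3 and 55.3 for miR-181b, beside 1213 and 1007 for rno-miR-29c. Spreads were 0.44 over the 4 miR-30 members and 0.26 over the 7 let-7 members. Names with an arm suffix were not counted, and rno-miR-30b-5p, with a log2 ratio of -0.17, lay inside the span of the other miR-30 members. All 4 families held members on both sides of 0 in this scaling.

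**Figure D4:**
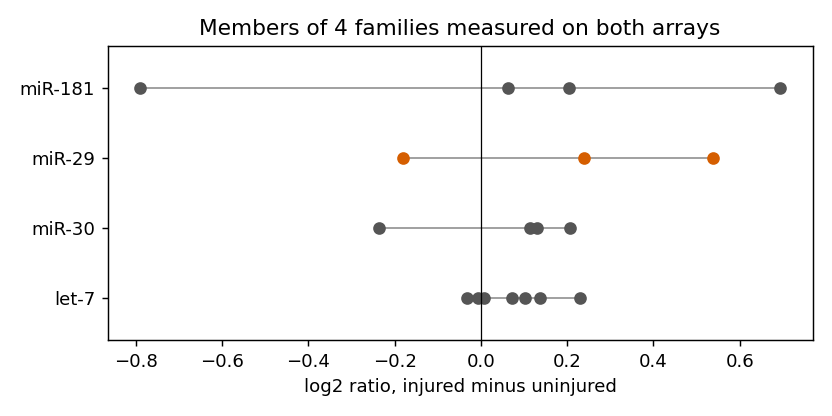
Log2 ratio (injured minus uninjured) of each member, 1 point per miRNA, in the 4 families, grouped by the number in the name, with at least 3 measured members. The grey line spans each family's range. The miR-29 guides span 0.72, wider than let-7 (0.26) and miR-30 (0.44) and narrower than miR-181 (1.49).

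The miRNAs whose pair of signals lay nearest to each member were found by the distance between scaled log2 signals over the 2 arrays. For rno-miR-29a they were let-7f (distance 0.27) and miR-22 (0.31). Nearest to rno-miR-29b were miR-199a-3p, at a distance of 0.14 and with a log2 ratio of 0.37, and let-7i (0.28). The nearest to rno-miR-29c were let-7d (0.30) and miR-26b (0.45), and no other miR-29 guide was among the nearest 2 of any guide. rno-miR-29c* was nearest to miR-28* (0.10), another passenger strand, with signals of 23.0 in the uninjured and 13.3 in the injured artery, and to miR-341 (0.23). With 2 arrays such nearness says only that brightness and ratio were alike.

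Other miRNAs linked to matrix were taken from 2 lists, which were written with earlier results of these data known. The first held 20 miRNAs known to repress matrix or TGF-beta signalling genes. Of these 15 had a ratio, with a median log2 ratio of 0.01, beside 0.03 for the miR-29 members and 0.14 for all 158. In this list 1 was at least 2-fold higher, beside 12.7% of the 158, and 2 were at least 2-fold lower, beside 3.80%. The count at least 2-fold higher was 0 with the medians aligned, quantile normalization, the 75th percentile of all rat miRNAs or either alignment of the control features. The count at least 2-fold lower was 3 with the 75th percentile of all rat miRNAs or either alignment of the control features. In those settings 12.7%, 10.8% and 14.6% of the 158 were at least 2-fold lower. The highest were miR-19b, which represses the TGF-beta receptor and connective tissue growth factor, at 1.35, and miR-101b (0.33) and let-7b (0.14). The lowest were miR-133a (-1.09) and miR-133b (-1.03), muscle miRNAs that repress connective tissue growth factor, followed by miR-145 (-0.55). The 4 members measured on neither array were miR-200a, miR-200b, miR-200c and miR-141, which mark epithelium, and miR-18a had flag 1 only after injury, with a bound of at least 3.39-fold higher against the lowest detected signal and at least 1.32-fold with the highest undetected one.

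The second list held 6 miRNAs known to favour fibrosis. The 4 of them measured on both arrays all lay above 0, as did 103 of all 158, and their median log2 ratio was 0.92. Of these 4, 2 were at least 2-fold higher, beside 12.7% of the 158. The count past 2-fold was 1 under each other setting except no scaling and the authors' deposited ratio. Without the detection filter the list's median was 0.72. miR-21, which favours growth of fibroblasts and smooth muscle, had signals of 1065 and 4915 and a log2 ratio of 2.29. miR-214 (1.12), miR-199a-5p (0.72) and miR-34a (0.60) followed. miR-192 had flag 1 only after injury, at a signal of 7.50 against 6.23, and miR-155 was not analysed here. With the control features aligned, the first list's median was -0.45 and the second list's 0.46. In that setting the median was -0.32 over all 158 and -0.43 over the measured miR-29 members.

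**Figure D5:**
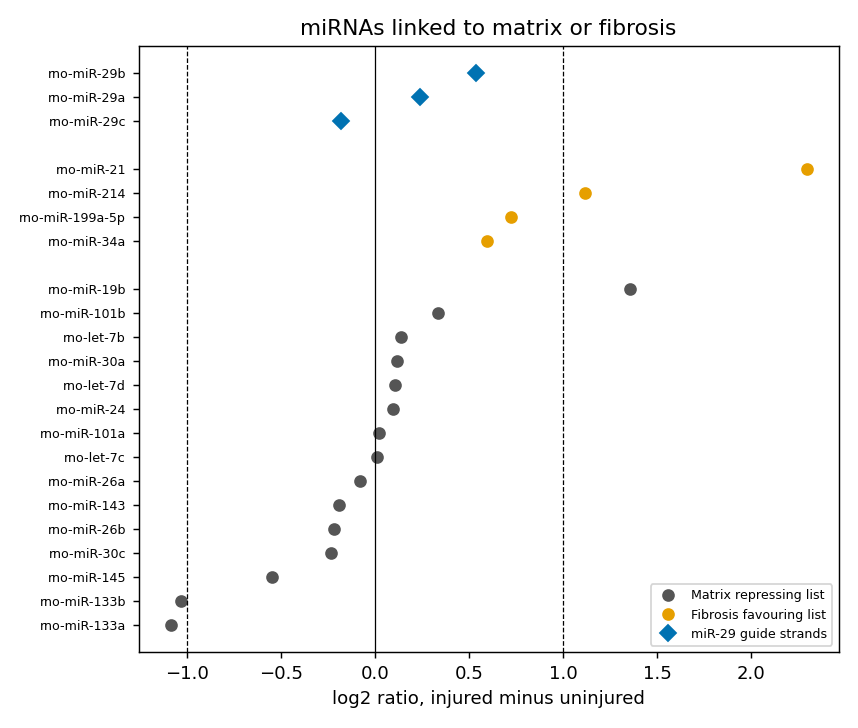
Log2 ratio (injured minus uninjured) of the miRNAs of the matrix repressing list (15) and the fibrosis favouring list (4) measured on both arrays, with the 3 miR-29 guides as diamonds and dashed lines at 2-fold. The guides lie between -0.18 and 0.54, between miR-133a at -1.09 and miR-21 at 2.29.

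Markers of some other cells also differed between the arteries. Summed signals here are unscaled, while log2 ratios and 2-fold counts are scaled. Of all 158 miRNAs, 12.7% were at least 2-fold higher and 3.80% at least 2-fold lower. The summed signal of the 5 leukocyte miRNAs with a row, each with flag 1 in both arteries, was 288 in the uninjured and 606 in the injured artery, and 3 of them passed 2-fold upwards. Of the others, miR-146a lay at 0.77 on the log2 scale. The lymphocyte miR-150 went the other way, with signals of 82.4 and 54.7 and a log2 ratio of -0.50. Of the 3 past 2-fold, miR-142-5p had an uninjured signal of 10.0, near the brightest unmeasured miRNA there (8.84). For the erythroid miR-451 and miR-144 the summed signal was 677 and 125, and both were at least 2-fold lower. The smooth muscle miR-143 and miR-145 summed to 17749 and 14465, and the endothelial miR-126 and miR-126* to 626 and 615. Their scaled log2 ratios, in that order, were -0.19, -0.55, 0.08 and -0.22, all within 2-fold. All 4 nerve miRNAs, miR-124, miR-9, miR-137 and miR-138, were measured only in the uninjured artery, as were 8 of all 350 rat miRNAs. The summed signals of these 4 were 106 and 7.83, and the 7.83 adds flag 0 values, 2 of them listed at 1. In the uninjured artery miR-9, at 7.43, was dimmer than the brightest unmeasured miRNA (8.84). Scaled bounds set against the brightest unmeasured miRNA after injury were at least 1.17-fold lower for miR-9, 2.56 for miR-124, 4.19 for miR-138 and 8.74 for miR-137. Of the striated muscle miRNAs miR-1 and miR-133a were at least 2-fold lower, while miR-206 and miR-208 were measured on neither array. The injured signal of miR-1 was 6.64, near the brightest unmeasured miRNA on that array (5.98). Which cells carry the miR-29 members, and the part of these shifts in their ratios, was not tested. In whole arteries, fewer cells of a type and less RNA per cell cannot be told apart.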

How the data were processed

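Signal intensities and flags were deposited by the authors as 1 table per array. The sources used here do not give the background subtraction, normalization, scanner software or miRNA database release. The flag is not defined; it was 0 on all 7 negative controls and was read as detection. RNA was extracted with Trizol and labelled with an Agilent reagent, per the labels' protocols. The series' deposited value table holds a linear ratio, equal to injured over uninjured signal for all 349 shared names (relative tolerance 1e-05), so it is unscaled.

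Signals were put on the log2 scale and each array's 75th percentile, taken over the 158 miRNAs with flag 1 on both, was subtracted (python 3.11.15, pandas 2.3.3; computed here, not a deposited log2 value). This raised each log2 ratio by 0.09. Of the 22 control features none entered the scaling. For a miRNA measured on 1 array, the bound sets its signal against the other array's lowest detected signal (3.43 uninjured, 1.36 injured) or the miRNA's own, whichever is higher. The scaling code, apart from the control feature settings, was run on simulated data without noise. That run does not show how the scalings behave on these arrays.

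The members, lists and comparisons were chosen with earlier results of these data known. Named by rule were all members, the 2 nearest miRNAs to each by signal, and the 3 highest and 3 lowest of the matrix list. The rule also covered the widest and narrowest families and strand pairs, and the cell markers. Named outside this rule were the whole fibrosis list, matrix list members not measured on both arrays, and the remaining families. Strand pairs left out of the count and the nearest other mature sequence were also named outside it. Families were formed from names and then checked for a shared seed. Other scalings, the deposited ratio and detection alternatives were tried. With 1 array per group, the number of arrays limits the precision.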

Additional observations from a re-analysis of the deposited data

How the results depend on the processing

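The scaling decided the sign of rno-miR-29a and of the family median, and rno-miR-29b was negative in 1 of the 9 settings. rno-miR-29c and rno-miR-29c* were negative under every setting computed. Log2 ratios are given for rno-miR-29a, rno-miR-29b, rno-miR-29c, rno-miR-29c* and the family median in that order. With the medians aligned they were -0.20, 0.094, -0.63, -1.13 and -0.41. With quantile normalization they were 0, 0.10, -0.37, -0.92 and -0.19. Taking the 75th percentile over all rat miRNAs gave -0.26, 0.039, -0.68, -1.19 and -0.47. Aligning the control features gave -0.22, 0.075, -0.64, -1.15 and -0.43. In these settings other than quantile normalization 1 member was at least 2-fold lower, and none was at least 2-fold higher. A further pair of settings was chosen after seeing the data. A local regression (lowess, fraction 0.5) gave 0.14, 0.43, -0.31, -0.82 and -0.081. Aligning the control features by the median of their log2 ratios gave -0.35, -0.053, -0.77, -1.28 and -0.56, with 1 member at least 2-fold lower. Without scaling, as in the authors' deposited ratio, each value moved by less than 0.1 and the family median was -0.06. The 3 unmeasured passenger strands, rno-miR-29b-1* included, gave no bound under either detection alternative, because neither array measured them. No paired analysis was possible because each group held 1 array. No alternative measures replicate error.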
